A study of Homo sapiens with 6 samples.

Results

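The subject is 1 transcriptome library of 6, the one labelled MCF10A wt replicate 1, set against the 3 other libraries of cells that do not overexpress GIRK1. It was chosen on its measured values, because it held reads of luminal and estrogen receptor genes and almost none of basal genes, so that every difference between it and the controls is a description and no test was run on any of them. All 20802 gene amplicons in the files were read, and 9566 of them passed the filter on low values, a mean over the 4 libraries of at least 5 RPM (reads per 1000000 reads of the library). The library keeps its deposited label throughout.

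The study asked which genes move when GIRK1, a subunit of G protein-gated inward rectifier potassium channels encoded by KCNJ3, is overexpressed in MCF10A, an established benign mammary epithelial line. The 6 libraries were labelled as 2 replicates each of untransfected cells (wt), of cells carrying the pIRES2eGFP vector alone (eGFP) and of cells carrying GIRK1 in that vector (hG1a). They were made with the Ion AmpliSeq Transcriptome kit, which amplifies 1 short stretch per gene from cDNA. The eGFP and hG1a lines were stably transfected pools selected with G418, the wt cells carried no vector, and no treatment was applied. The controls used here were wt replicate 2 and both eGFP replicates, and the hG1a libraries, which took no part in choosing the library, are given beside them. No label says whether replicates were separate cultures. The study also grew MCF7, an estrogen receptor positive luminal breast cancer line, but all 6 libraries carry the label MCF10A.

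The library went against its label. Labelled as a replicate of the same cells, wt replicate 1 and wt replicate 2 had 1585 of 9566 genes at least 4-fold apart, which is 16.6% of them, whereas pairs among the 3 controls had 6 to 163 such genes. The SD of the log2 differences was 1.81 between both wt libraries. It was 0.32 between wt replicate 2 and eGFP replicate 2, and 0.63 and 0.70 for the pairs that held eGFP replicate 1, the control that stood farthest from the other two. Against the hG1a libraries, wt replicate 1 had SDs of 1.80 and 1.82. How the library came to differ was not tested, and with 1 such library a cell line, a culture and a library preparation cannot be told apart.

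Depth differed as well. The library held 2506120 reads against 5126930 to 16040556 in the controls, so that 3 reads, the smallest level taken as detectable, stood for 1.20 RPM in it and for 0.187 to 0.585 RPM in the controls. Reads were seen on 12773 genes in wt replicate 1 and on 12734 to 13674 genes in the controls. Intervals and these floors cover counting error only. Where a gene had 0 reads on 1 side, its fold is given as a lower bound against 3 reads, using the shallowest library of that side.

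Mammary epithelium has an inner luminal layer, marked by simple keratins such as KRT8, KRT18 and KRT19, and an outer basal layer, marked by KRT5, KRT14 and adhesion molecules that hold cells to the basement membrane. A share of luminal cells makes estrogen receptor alpha, a nuclear receptor encoded by ESR1 that binds estradiol and, with the pioneer factor FOXA1 and with GATA3, switches on genes such as PGR, GREB1 and TFF1. MCF10A is known as a basal-like line that lacks this receptor.

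**Figure D1:**
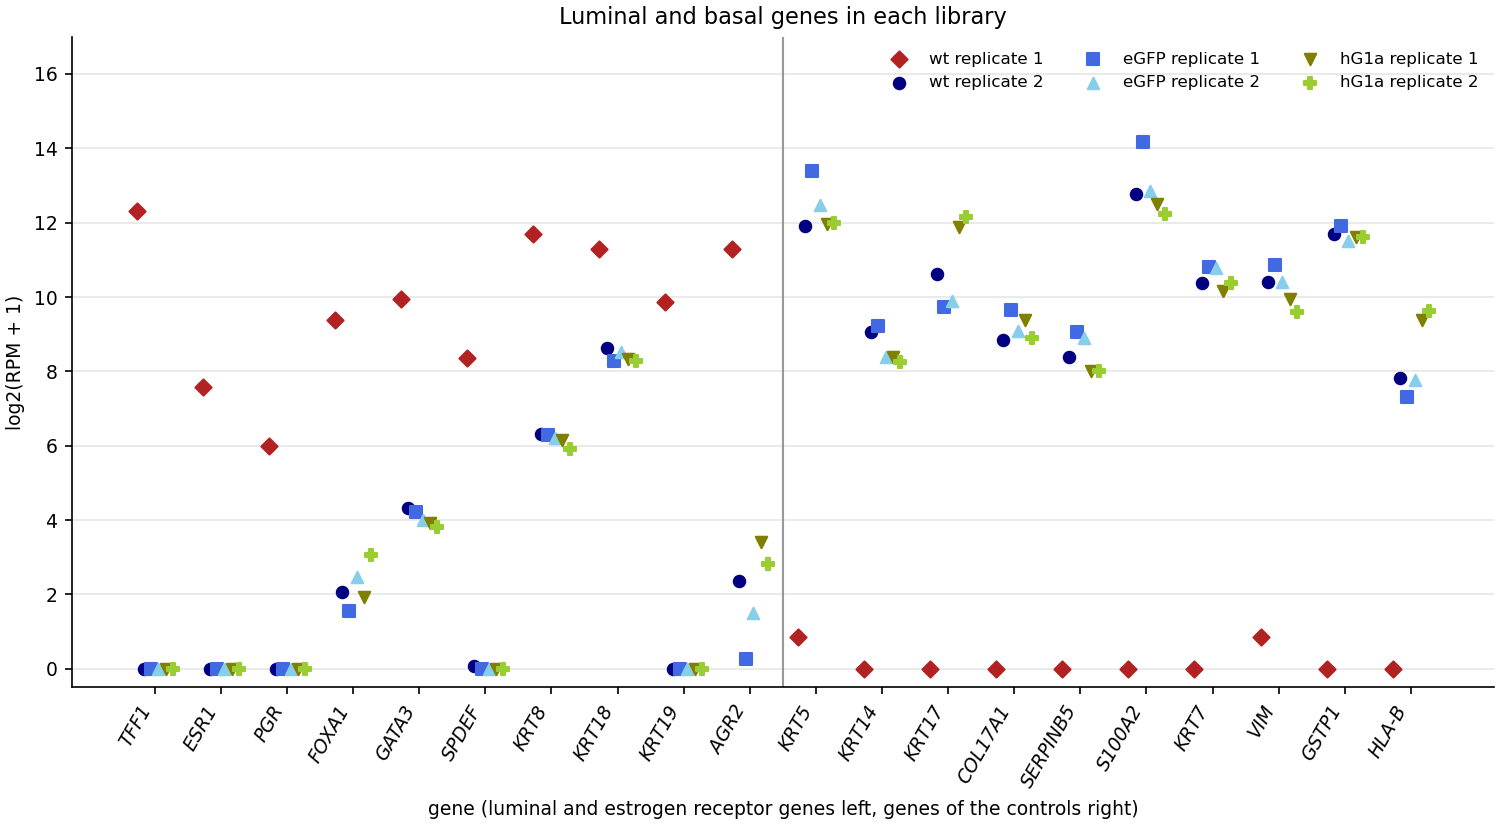
Level of 20 genes in each of the 6 libraries, as log2(RPM + 1). Red diamonds (wt replicate 1) lie above all other libraries for the luminal and estrogen receptor genes on the left and at or near 0 for the genes on the right, where the controls and the hG1a libraries lie between about 7 and 14.

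The 5 genes used to recognise the library separated it from all others. TFF1, a secreted trefoil peptide that estrogen induces, had 12796 reads in wt replicate 1 (5106 RPM, exact 95% interval 5018 to 5195) and 0 reads in each of the other 5 libraries, which made it at least 8726-fold higher than in the controls. ESR1 had 481 reads (192 RPM, exact 95% interval 175 to 209.9) against 0 reads in the other 5, at least 328-fold higher. The other 3 marker genes had the reverse pattern. KRT5, the type II keratin of basal cells, had 2 reads in wt replicate 1 and 3862, 10660.2 and 5741 RPM in wt replicate 2, eGFP replicate 1 and eGFP replicate 2. KRT14, its type I partner, had 0 reads against 535, 592 and 335 RPM. S100A2, a calcium-binding protein of basal and squamous epithelium, had 0 reads against 6980.4, 18504 and 7329.9 RPM, a level at least 9137-fold lower. For none of these 5 genes did wt replicate 1 overlap with the controls, which was fixed by choosing the library on them. Of all genes past the filter, 12.5% lay at least 4-fold beyond the nearest control. In bulk RNA, fewer cells of a type and less RNA per cell cannot be told apart.

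Over all genes, a gene was called when wt replicate 1 lay at least 4-fold beyond the nearest control on log2(RPM + 1). By that rule 506 genes were called higher, 5.29% of those past the filter, and 686 were called lower, 7.17%. With every library thinned to the read total of wt replicate 1, the counts were 484 and 682. Without a filter they were 939 and 736. Some genes passed the filter through wt replicate 1 alone and had to be higher. More passed through the controls alone and had to be lower. The filter thus fixed the direction of both groups, and the share of the calls that they make up is not given here. On the higher side PLEKHF2 lay just inside the rule, 2.0001 beyond the nearest control on the log2 scale, and EPN3 just outside it at 1.998. On the lower side ARNTL (2.004) lay just inside and C19orf33 (1.999) just outside. The remaining 8374 genes lay within 4-fold of at least 1 control. The median log2 difference of all genes was 0.07, with an interquartile range from -0.71 to 0.82. With TMM factors in place of library totals that median was -0.17, so list medians near 0 should be read against it.

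**Figure D2:**
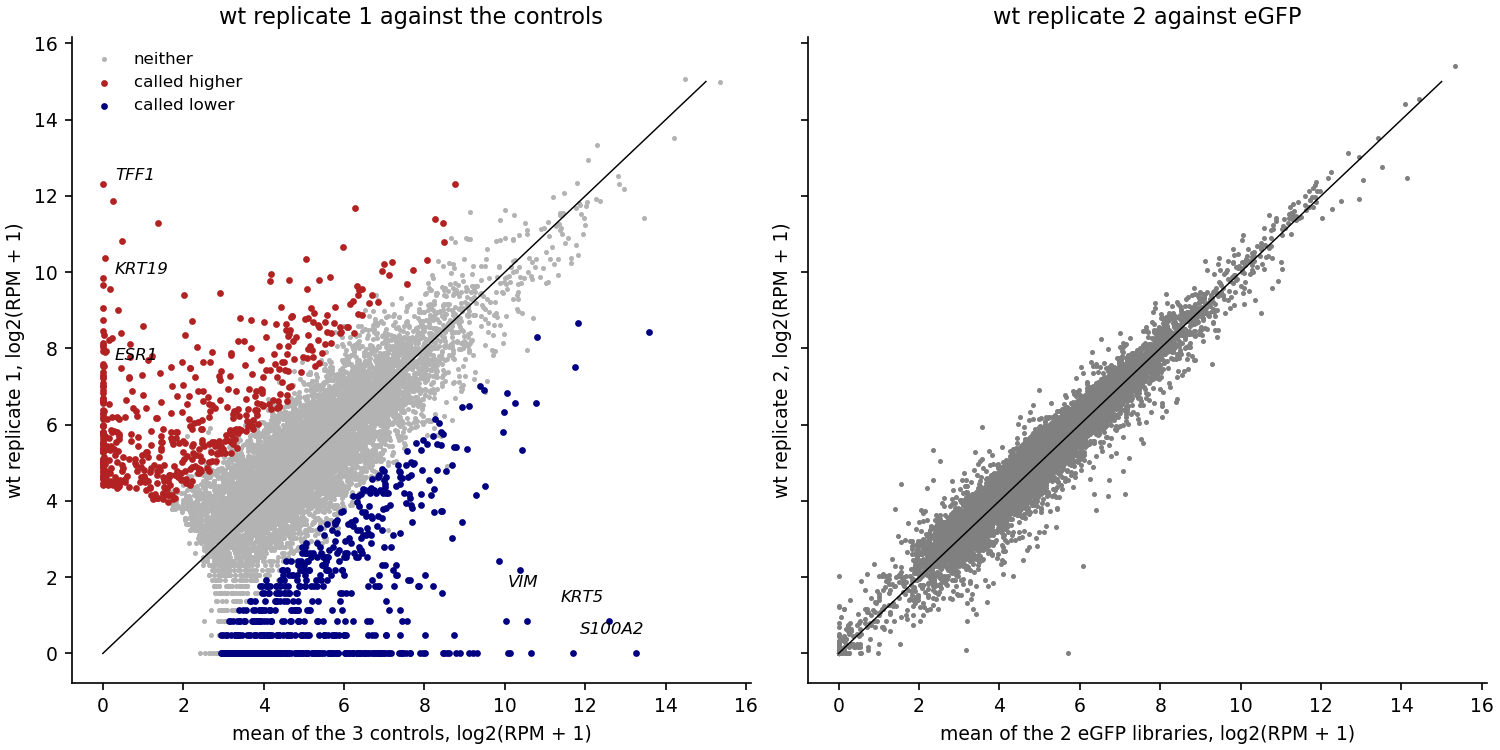
Each point is 1 of the 9566 genes past the filter, on log2(RPM + 1), with the line of equality. On the left, wt replicate 1 is plotted against the mean of the 3 controls with the 506 genes called higher in red and the 686 called lower in blue. On the right, wt replicate 2 against the mean of both eGFP libraries stays close to the line.

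Of the genes called higher, 454 (89.7%) also lay at least 4-fold above both hG1a libraries, and of those called lower 579 (84.4%) lay at least 4-fold below both. The hG1a libraries had no part in the choice, but both comparisons share wt replicate 1. They also resembled the controls (Spearman's rho 0.88 to 0.96), so most genes called would lie beyond them as well. Many genes were read on 1 side only. Among 5436 genes with at least 20 RPM in every control, 104 (1.91%) had 0 reads in wt replicate 1, where 20 RPM would be about 50.1 reads. Among 6278 genes at 20 RPM or more in wt replicate 1, 72 (1.15%) had 0 reads in all 3 controls. By comparison, 0 genes with at least 20 RPM in the other controls had 0 reads in eGFP replicate 1, the shallowest control.

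The luminal and estrogen receptor list held the highest median among the lists. Of its 25 genes, 18 passed the filter, of which 15 were called higher and 0 lower, with a median log2 difference of 6.93 (7.05 with the genes at 0 reads set at their bounds). Of the 18, 11 passed through their level in wt replicate 1 alone and so had to be higher. Among all genes, 5.29% were called higher. The list includes TFF1 and ESR1, markers by which the library was chosen. Its counts, median and sum are therefore no separate support for the choice. The summed level of the list was 20244 RPM in wt replicate 1, 1133, 767 and 982 RPM in the controls and 973 and 875 RPM in the hG1a libraries.

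Its transcription factors came first in role. FOXA1, which opens chromatin for the receptor, had 671 RPM in wt replicate 1 and 3.18, 1.95 and 4.49 RPM in the controls, 209-fold higher. GATA3, the zinc finger factor of luminal differentiation, had 982 RPM against 19.2, 17.7 and 15.0 RPM, and SPDEF, an ETS factor of secretory epithelium, had 816 reads against 1 read in all controls together. ELF3, an epithelial ETS factor, was 253-fold higher, and XBP1, a factor of the secretory stress response, 7.39-fold higher. The controls thus held low but measured levels of FOXA1 and GATA3, and no more than the floor of SPDEF.

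The receptor's own targets in the list followed. PGR, the progesterone receptor, had 157 reads (62.6 RPM) and GREB1, a receptor cofactor, had 767 reads (306 RPM), with 0 reads of PGR and at most 0.623 RPM of GREB1 in a control. TFF3, a trefoil peptide like TFF1, had 419 reads against 0. The secreted disulfide isomerase AGR2 had 2516 RPM against 4.11, 0.195 and 1.86 RPM in the controls and 9.72 and 6.09 RPM in the hG1a libraries, and its neighbour AGR3 had 390 reads against 0.

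The simple keratins differed in size. KRT19 went from 0 reads in every other library to 924 RPM. KRT8 had 3288 RPM against 78.0, 77.8 and 72.6 RPM, 43.2-fold higher, and its partner KRT18 had 2492 RPM against 392, 308 and 363 RPM, 7.03-fold higher. The controls therefore had reads of KRT8 and KRT18 but none of KRT19, while KRT7, another simple keratin, ran the other way with 0 reads against 1333, 1797 and 1746 RPM.

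Not every luminal gene was higher. CA12, a carbonic anhydrase that is often counted among receptor targets, had 101 RPM, inside the controls' range of 66.3 to 200.1 RPM, and the T-box factor TBX3 had 6.38 RPM, inside 4.36 to 10.7 RPM. SLC39A6, a zinc transporter, had 86.6 RPM against 14.5 to 23.1 RPM and lay less than 4-fold above the nearest control. Among the members below the filter, PDZK1, MYB and NAT1 had 43, 13 and 8 reads in wt replicate 1. BCL2, the apoptosis inhibitor, had 0 reads in wt replicate 1 and 3.68, 4.49 and 5.77 RPM in the controls, and TFAP2B and ANKRD30A had 0 reads in all 4 libraries.

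A second list held genes known to respond to estrogen. Of 28 members, 24 passed the filter, and 10 were called higher and 3 lower, with a median of 2.08. Among all genes, 5.29% were called higher and 7.17% lower. The summed level of the list, 7209 RPM, lay within the controls' 8159.8, 5769.7 and 8784 RPM. Of the 24, 7 passed through wt replicate 1 alone and had to be higher. RET, a receptor tyrosine kinase, had 237 reads against 0. IGFBP4, which binds insulin-like growth factors, was 104-fold higher (328 RPM against 2.34 to 3.99 RPM). CCND1, cyclin D1, had 789 RPM against 70.7, 114 and 60.1 RPM, and NRIP1, a corepressor of nuclear receptors, was 15.0-fold higher. PKIB, a protein kinase inhibitor, was 263-fold higher, and CELSR2, an adhesion receptor, 30.8-fold higher.

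The 3 members called lower carried much of the list's summed level. SLC7A5, an amino acid transporter, had 182 RPM against 4078, 2163 and 4458 RPM, 19.6-fold lower. AREG, the EGF receptor ligand amphiregulin, had 317 RPM against 1890.5, 1594 and 1874 RPM, and FHL2, a LIM domain cofactor, was 12.4-fold lower. MYC had 167 RPM, below the controls' 554 to 648 RPM but within 4-fold. Thus the list was mixed, with genes of the receptor's response on both sides.

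**Figure D3:**
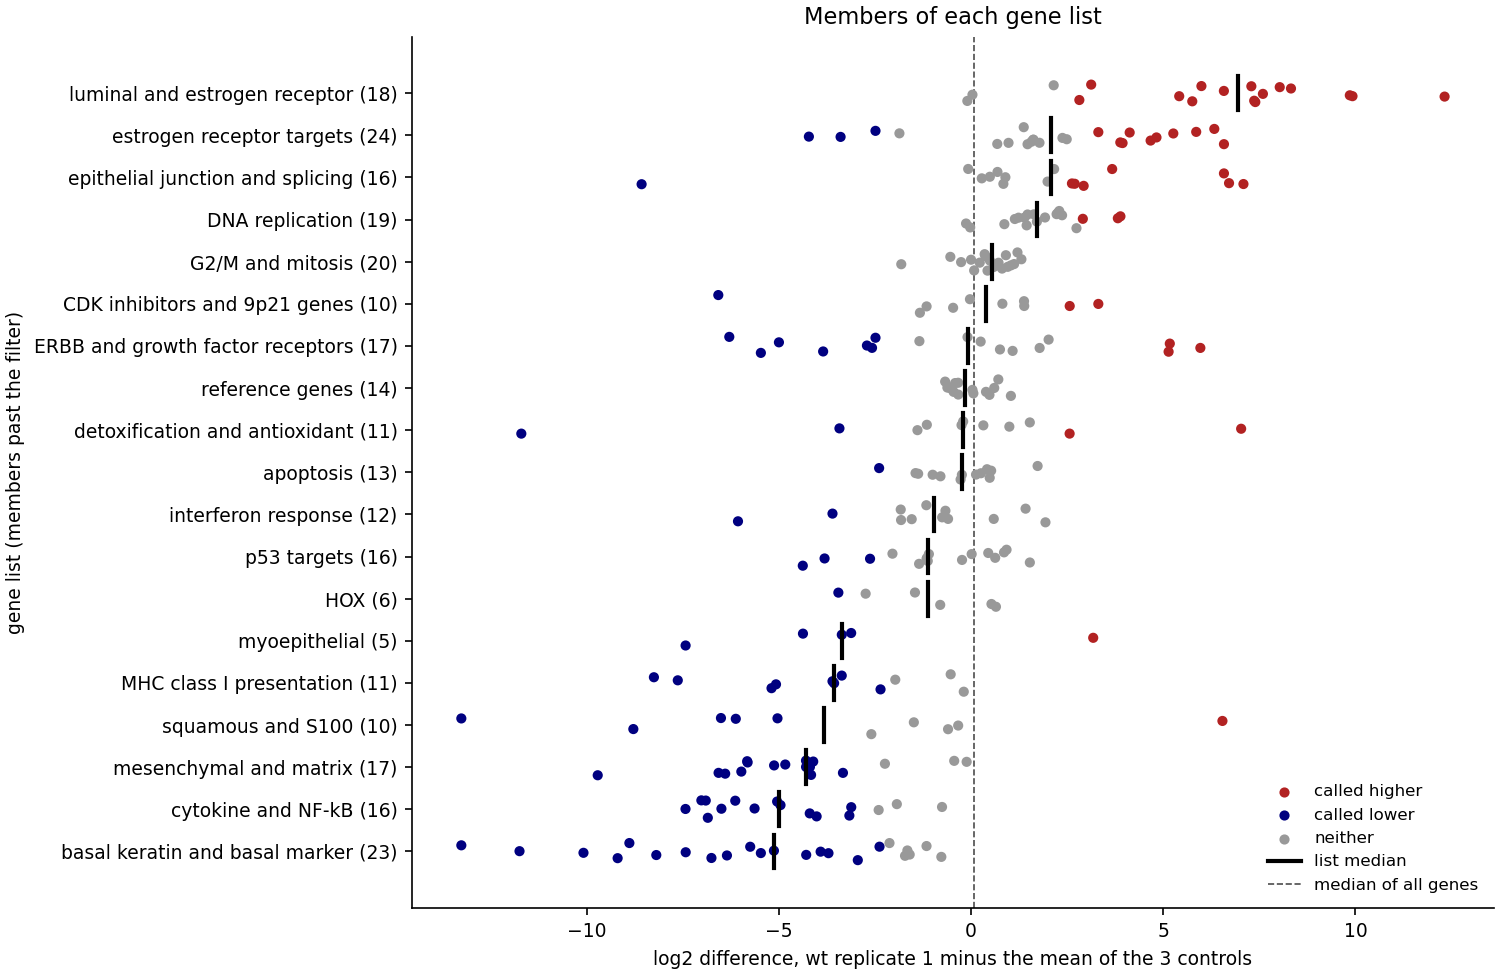
Log2 difference of wt replicate 1 from the mean of the 3 controls for every list member past the filter, for lists with at least 5 such members. Red and blue points were called higher and lower, black bars are list medians and the dashed line is the median of all genes (0.07). The luminal list lies at the top (median 6.93) and the basal list at the bottom (median -5.13).

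The basal list was the mirror of the luminal one. Of 26 genes, 23 passed the filter, and of these 17 were called lower and 0 higher, with a median of -5.13 and all 23 differences below 0. Of the 23, 13 passed through the controls alone and had to be lower. Among all genes, 7.17% were called lower. The list includes KRT5, KRT14 and S100A2, markers by which the library was chosen, so it too is no separate support. The summed level was 588 RPM in wt replicate 1, 18109, 38675 and 20956 RPM in the controls and 18425 and 17765 RPM in the hG1a libraries. In eGFP replicate 1 the sum was thus higher than in both other controls.

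Among the keratins, KRT17 had 0 reads against 1569.8, 853 and 952 RPM, KRT6A 0 reads against 78.9, 167 and 93.0 RPM and KRT16 1 read against 26.0, 27.1 and 26.0 RPM. KRT15, another keratin of the basal layer, had 23.9 RPM against 167, 67.7 and 109.9 RPM and was not called. The keratins have near-identical paralogs and pseudogenes, so the division of reads among KRT6A, KRT14, KRT16 and KRT17 is uncertain.

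The attachment genes of the basal layer were low but not all absent. COL17A1, the hemidesmosomal collagen, had 0 reads against 461, 804 and 541 RPM. LAMB3, a chain of laminin-332, had 9 reads and was 399.6-fold lower, whereas LAMA3, another of its chains, had 5.99 RPM against 12.1 to 17.0 RPM. The integrin genes differed in the same way: ITGA6 was 38.2-fold lower, and ITGB4, its partner in hemidesmosomes, had 334 RPM against 852, 1338 and 907 RPM and was not called. The desmosomal cadherins DSG3 and DSC3 had 0 reads each, against 47.8 to 124 and 33.5 to 81.4 RPM. Of the 3 members below the filter, TP63, the defining transcription factor of basal cells, and KRT6B had 0 reads in all 6 libraries, and NGFR had 1 read in wt replicate 1, so that the TP63 amplicon cannot tell the libraries apart.

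The growth factor receptors showed members on both sides, with 3 of 17 called higher and 7 lower, beside 5.29% and 7.17% of all genes. The median of the list was -0.09. That median was -0.59 without eGFP replicate 1, -0.20 without eGFP replicate 2, -0.0088 without wt replicate 2, -0.81 with thinned libraries and -1.92 at a mean of at least 20 RPM, and 4 of the 17 passed the filter through wt replicate 1 alone and 3 through the controls alone. EGFR, the receptor of epidermal growth factor, had 9.98 RPM against 537, 385 and 551 RPM, 49.3-fold lower. ERBB3 had 198 RPM against 3.05, 8.00 and 3.91 RPM and ERBB4 154 reads against 0, both receptors of neuregulins. ERBB2, their shared partner, had 27.9 RPM, within the controls' 19.3 to 28.3 RPM. MET, the receptor of hepatocyte growth factor, was 46.0-fold lower, and the EGF receptor ligands HBEGF and EREG had 1 read each, against 37.3 to 185 and 15.0 to 22.6 RPM. IRS1, the adaptor of insulin and IGF receptors, was 41.6-fold higher, whereas IGF1R had 275 RPM against 64.2 to 93.8 RPM and was not called.

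Of 16 genes of cell junctions and of the epithelial splicing program, 7 were called higher and 1 lower, with a median of 2.07. The shares over all genes were 5.29% and 7.17%. Through wt replicate 1 alone 5 of the 16 passed the filter, and 1 through the controls alone, so that the filter fixed the direction of these. GRHL2, a factor that maintains epithelial identity, had 260 reads against 0, and CLDN4, a claudin of tight junctions, was 174-fold higher. CDH1, E-cadherin, had 672 RPM against 96.3, 103 and 109.9 RPM. RAB25, a GTPase of epithelial recycling, had 217 RPM against 3.12, 0 and 0 RPM, and 55.6 and 40.8 RPM in the hG1a libraries. CLDN1 was the exception, with 0 reads against 556, 175 and 560 RPM, and the splicing regulators ESRP1 and ESRP2 were within 4-fold of the controls.

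Of the mesenchymal and matrix genes, 14 of 17 were called lower and 0 higher, with a median of -4.29. Among all genes, 7.17% were called lower. Of the 17, 13 passed the filter through the controls alone and had to be lower. VIM, vimentin, had 2 reads in wt replicate 1 against 1359, 1849 and 1366 RPM, 1911-fold lower (counting interval 529 to 15776). SNAI2, the repressor of epithelial genes, was 43.5-fold lower, AXL, a receptor tyrosine kinase, had 1 read against 42.3 to 59.5 RPM, and TWIST1 had 0 reads against 15.8 to 23.5 RPM. SPARC, a matrix protein, had 0 reads against 31.7, 104 and 52.2 RPM in the controls and 1.89 and 0.483 RPM in the hG1a libraries, the lower of which is under the floor of wt replicate 1. COL5A1, below the filter, went the other way with 42 reads against 0, and CTGF and THBS1 lay within 4-fold. In the myoepithelial list 4 of 5 were lower (3 passed through the controls alone), among them CALD1, caldesmon, with 0 reads against 158, 175 and 181 RPM, and the tropomyosin TPM1 was higher, with 377 RPM against 49.7, 32.0 and 42.7 RPM, while TPM2 was 24.6-fold lower.

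Of the squamous and S100 genes, 5 of 10 were lower and 1 higher, where 7.17% of all genes were called lower and 5.29% higher. Through the controls alone 5 of the 10 passed the filter and had to be lower, and the median of -3.82 was -0.60 without a filter. S100A2, a marker by which the library was chosen, is in this list as well. SERPINB5, maspin, had 0 reads against 335, 531 and 480.5 RPM, and S100A8 and S100A9, which form calprotectin, had 0 reads against control means of 34.4 ± 16.7 and 96.5 ± 42.0 RPM (SD, n = 3). S100P, another S100 protein, was the 1 higher, with 697 RPM against 19.3, 1.56 and 7.13 RPM. S100A10 and S100A11 lay within 4-fold of the controls.

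Cytokine and NF-kB genes were mostly lower, 13 of 16 called lower and 0 higher, with a median of -5.00. Among all genes, 7.17% were called lower. Of the 16, 14 passed the filter through the controls alone. IL1A, interleukin 1 alpha, had 0 reads against 124, 85.2 and 200 RPM, CCL20, a chemokine, 0 reads against 123 ± 36.6 RPM (SD, n = 3) and CSF3, the granulocyte growth factor, 0 reads against 72.9, 199.5 and 345 RPM. IL18 was 173-fold lower. The spread among the controls was wide here, with IL1B at 17.1, 190.4 and 99.4 RPM. NFKBIA, the inhibitor of NF-kB, had 107 RPM against 135 to 244 RPM and was not called.

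Of the MHC class I genes, 8 of 11 were lower and 0 higher, where 7.17% of all genes were called lower. Of the 11, 5 passed the filter through the controls alone, which fixed their direction. HLA-B had 0 reads against 157 to 225 RPM, and HLA-C had 1 read against 369 to 470.1 RPM. These genes are highly similar to each other and vary between people, so a 0 on such an amplicon is uncertain. The other steps of the pathway were measured apart: B2M, the light chain, was 5.19-fold lower, the peptide transporter genes TAP1 and TAP2 were 13.7-fold lower and 11.7-fold lower, and PSMB8, an immunoproteasome subunit, had 0 reads against 32.2 to 33.4 RPM. HLA-E and CALR, calreticulin, were within 4-fold of the controls.

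Of 12 interferon response genes past the filter, 2 were lower and 0 higher, where 7.17% of all genes were called lower. Through the controls alone 5 of the 12 passed and had to be lower, and 1 passed through wt replicate 1 alone. BST2, tetherin, was 103-fold lower and IFI44 had 0 reads against 11.4 ± 2.73 RPM (SD, n = 3). ISG15, a ubiquitin-like modifier, had 65.0 RPM against 15.2 to 36.2 RPM. The summed level of the list, 259 RPM in wt replicate 1 and 403, 630.4 and 486 RPM in the controls, was 10821 and 15114 RPM in the hG1a libraries.

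The lists of the cell cycle differed from each other, where 5.29% of all genes were called higher and 7.17% lower. In the G2/M list 0 of 20 were called either way, with a median of 0.54, and MKI67, the proliferation antigen, had 119 RPM against 42.1, 55.2 and 46.2 RPM. In the DNA replication list 3 of 19 were called higher and 0 lower, with a median of 1.71. These were the S phase cyclin CCNE2 (39.5 RPM against 0.997, 4.49 and 0.879 RPM), E2F1, the factor that drives entry into S phase (122 RPM against 4.30, 20.7 and 4.79 RPM), and GINS2, a part of the replicative helicase (151 RPM against 20.6 ± 9.91 RPM, SD, n = 3). CCNE2 passed the filter through wt replicate 1 alone and had to be higher. In all 3 genes eGFP replicate 1 was the highest control, and its summed level over the list, among 717, 1538 and 805 RPM in the controls, was also the highest of them.

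Among cyclins and CDK inhibitors, CCND2 had 0 reads against 74.1, 105 and 109 RPM, opposite to CCND1, and CDKN2C was 6.26-fold higher. CDKN2A and MTAP had 0 reads in all 6 libraries, and CDKN2B had 11 reads in wt replicate 1 and 0 in the other 5. Of the p53 targets, 3 of 16 were lower, namely TP53I3 (31.8-fold lower), the death receptor gene FAS (16.8-fold lower) and TNFRSF10B (6.40-fold lower). Of the 16, 2 passed the filter through the controls alone and had to be lower, and 7.17% of all genes were called lower. CDKN1A and MDM2 lay within 4-fold of the controls.

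The detoxification list held some of the widest gaps. GSTP1, the pi class glutathione S-transferase, had 0 reads against 3339, 3816 and 2894 RPM, at least 2798-fold lower, whereas GSTM3, of the mu class, had 324 reads against 0. NQO1, a quinone reductase, was 5.91-fold higher. GCLC and GCLM, which make glutathione, lay within 4-fold. The list as a whole had 2 higher, 2 lower and a median of -0.21 over 11 genes. Among all genes, 5.29% were called higher and 7.17% lower. Of the 11, 1 passed the filter through wt replicate 1 alone and 2 through the controls alone, which fixed their direction.

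Of the HOX genes 6 of 35 passed the filter, 1 through wt replicate 1 alone and 2 through the controls alone. HOXC8, among the latter, was called lower, as were 7.17% of all genes, with 1 read against 10.9 to 17.5 RPM. HOXB7, below the filter, had 37 reads in wt replicate 1 against 1 read in all controls together.

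The channel genes were checked last. KCNJ3 had 48 reads in wt replicate 1 (19.2 RPM, exact 95% interval 14.1 to 25.4), 0 reads in each control and 217 and 355 RPM in the hG1a libraries. KCNJ3 did not pass the filter in this comparison. KCNJ5, KCNJ6 and KCNJ9, the other GIRK subunits, had 0 reads in all 6 libraries. Their amplicons thus cannot tell the libraries apart, and a 0 there does not show that the subunits were absent.

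Reference genes differed little. Of 14 reference genes past the filter, 0 were called, with differences from -0.67 (EEF1A1) to 1.04 (ACTB) and a median of -0.15. TBP had 17.6 RPM against 16.6, 16.8 and 17.0 RPM. RPL13A, a ribosomal protein gene that cells use throughout, had 0 reads in all 6 libraries, so a gene at 0 in wt replicate 1 is given as a difference only where other libraries had reads of it.

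Most markers of other cells did not pass the filter on low values. Fibroblast markers summed to 17.2 RPM in wt replicate 1 and 13.0, 10.3 and 8.21 RPM in the controls, and endothelial markers to 1.20 RPM against 0.686, 1.56 and 1.47 RPM, with VWF and CDH5 at 0 reads in all 4 libraries. Of the leukocyte markers, PTPRC, CD3E and LYZ had 0 reads in all 4 libraries, and CD68 and CD14, which epithelial cells can also make, had 0 reads in wt replicate 1 against 14.9 to 23.8 and 7.11 to 21.7 RPM.

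The genes with the 15 widest differences on the higher side included 11 not yet described. SPTSSB, a subunit of serine palmitoyltransferase, had 3740.4 RPM against 0.312, 0 and 0.293 RPM. EEF1A2, the tissue-restricted form of elongation factor 1 alpha, had 1802 RPM against 1.25, 0.195 and 0 RPM, and IGFBP5, an IGF binding protein, had 3344 reads against 2 in all controls together. GFRA1, the GDNF co-receptor that works with RET, had 2035 reads against 0, as RET itself had 237 against 0. BMP7, a bone morphogenetic protein, had 1878 reads against 3 in the controls together. CEACAM6, a cell adhesion molecule, had 516 RPM against at most 1.17 RPM. FBP1, the gluconeogenic enzyme fructose bisphosphatase, and UCP2, a mitochondrial carrier, had 872 and 685 reads against 0. CALML5, C3orf14 and SYTL5 had 1338, 1081 and 706 reads against 0.

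On the lower side, GPX1, the main cytosolic glutathione peroxidase, had 0 reads against 984, 1303 and 1093 RPM. LDHB, the heart-type lactate dehydrogenase subunit, had 0 reads against 639, 692 and 571 RPM. MIR205HG, the host of miR-205, had 2 reads against 1026, 1147 and 942 RPM, MT1E, a metallothionein with close paralogs, 0 reads against 416, 1034 and 392 RPM and LAMB1, a laminin chain, 0 reads against 466, 264 and 489 RPM. The remaining genes among the 15 on this side were S100A2, KRT5, GSTP1, KRT7, KRT17, VIM, COL17A1, KRT14, SERPINB5 and CLDN1, whose values are given above.

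Upstream sequence of 4 of these genes is printed because 2 had almost no reads in wt replicate 1 (KRT5, GSTP1) and 2 were higher in it (KRT8, SPDEF). Each is the 250 bases before the start site in RefSeq (GRCh38.p14), 5′ to 3′ in the direction of the gene. Capitals mark matches, on either strand, to the letters searched, which were GGTCA for the core of an estrogen response element, TGTTTAC for forkhead factors, AGATAA for GATA factors, TGANTCA for AP-1 and GCCNNNGGC for AP-2. The full estrogen response element and the paired site of the p53 family were searched as well and had no match in these 4.
KRT5 (chr12:52520395-52520644, minus strand): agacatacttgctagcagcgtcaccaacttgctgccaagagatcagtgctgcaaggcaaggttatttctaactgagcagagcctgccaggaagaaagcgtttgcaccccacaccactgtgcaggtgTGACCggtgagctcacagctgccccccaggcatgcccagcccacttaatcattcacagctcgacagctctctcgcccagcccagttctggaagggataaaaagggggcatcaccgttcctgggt
GSTP1 (chr11:67583562-67583811, plus strand): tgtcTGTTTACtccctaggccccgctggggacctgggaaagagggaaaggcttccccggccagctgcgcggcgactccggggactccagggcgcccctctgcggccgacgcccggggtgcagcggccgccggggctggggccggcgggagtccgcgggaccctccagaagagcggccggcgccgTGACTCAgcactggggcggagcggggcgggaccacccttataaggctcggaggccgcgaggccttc
KRT8 (chr12:52926470-52926719, minus strand): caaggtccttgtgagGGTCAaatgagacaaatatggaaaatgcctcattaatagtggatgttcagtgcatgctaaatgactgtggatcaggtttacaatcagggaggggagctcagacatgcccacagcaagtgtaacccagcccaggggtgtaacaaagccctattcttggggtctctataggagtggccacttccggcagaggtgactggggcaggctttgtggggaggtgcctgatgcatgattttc
SPDEF (chr6:34556330-34556579, minus strand): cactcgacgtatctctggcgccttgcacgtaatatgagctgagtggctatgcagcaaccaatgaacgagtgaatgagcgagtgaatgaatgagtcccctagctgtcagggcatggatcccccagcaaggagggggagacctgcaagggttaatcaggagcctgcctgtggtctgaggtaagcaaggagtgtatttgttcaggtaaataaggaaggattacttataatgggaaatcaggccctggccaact
GSTP1 held a forkhead match and an AP-1 match, KRT5 and KRT8 an estrogen response core each, and SPDEF no match. The CpG content was low in KRT5, KRT8 and SPDEF (6, 1 and 6 CpG in 250 bases) and high in GSTP1 (28).

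Shares of promoters with a match were counted over genes with 1 RefSeq start. An estrogen response core was found in 25.5% of 263 promoters of genes called higher, 27.5% of 349 of genes called lower, 29.6% of 5605 of all genes past the filter and 33.6% of 22114 promoters of single-start genes in RefSeq. AP-1 letters were found in 3.04% of the higher, 7.16% of the lower and 3.16% of the tested set. AP-2 letters were found in 38.0%, 27.8% and 29.2% of them, and GATA letters in 3.04%, 5.44% and 3.30%. Over all single-start promoters in RefSeq the shares were 6.86% for AP-1, 19.3% for AP-2 and 9.72% for GATA. A forkhead match was found in 1.14% and 1.43%, against 1.73%. Of these promoters, 73.8% of the higher, 63.9% of the lower and 85.7% of all genes past the filter were rich in CpG (at least 50% GC and an observed to expected ratio of at least 0.6). Among the 44 single-start genes at 0 reads in wt replicate 1 with at least 20 RPM in every control it was 56.8%, and of those 11.4% held GATA letters and 9.09% AP-1 letters. These shares are descriptions of letters, and binding was not measured.

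**Figure D4:**
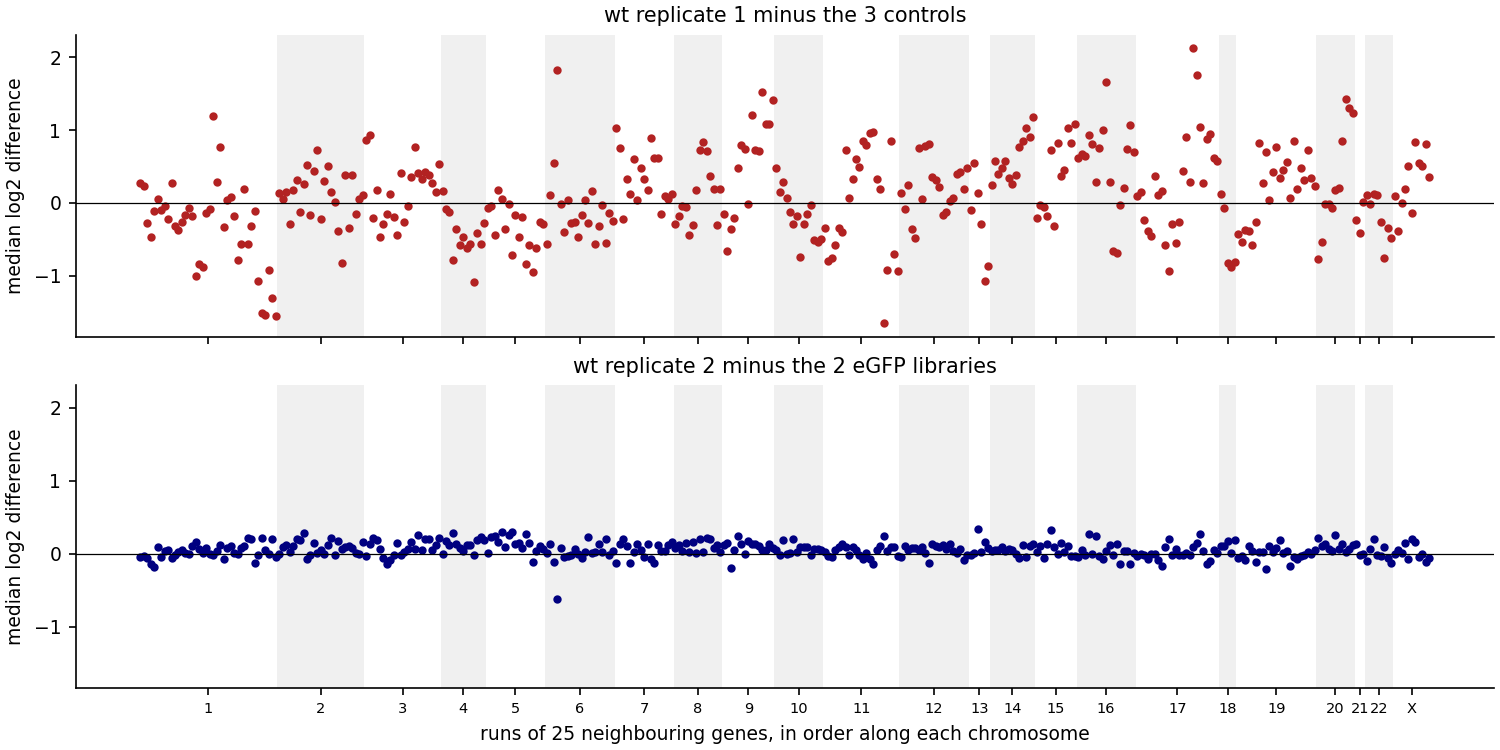
Median log2 difference of runs of 25 neighbouring genes past the filter, in order along each chromosome, with chromosomes shaded in turn. In the upper panel, wt replicate 1 minus the 3 controls, run medians spread from -1.65 to 2.12. In the lower panel, wt replicate 2 minus both eGFP libraries, they stay near 0 apart from 1 run of histone genes on chromosome 6.

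The differences were also read in gene order along the chromosomes. The 9534 genes matched to a RefSeq gene were cut into 372 runs of 25 neighbours, and the SD of the run medians was 0.58 for wt replicate 1 against the controls. For each control against the other two it was 0.10 (wt replicate 2), 0.16 (eGFP replicate 1) and 0.08 (eGFP replicate 2). Over single genes the SDs were 1.80 for wt replicate 1 and 0.44, 0.64 and 0.35 for those controls, so its run medians would spread more than theirs whatever the order of the genes, and whether neighbours differed alike was not tested. In wt replicate 1, 21 runs had a median of at least 1 and 9 a median of at most -1. Among the control comparisons 1 run median passed 1 in either direction.

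The highest run was on chromosome 17, from AKAP1 to HEATR6, with a median of 2.12, 24 of 25 genes above the controls' mean and 10 called higher. It held RPS6KB1, the S6 kinase (752 RPM against a control mean of 32.8), TRIM37, a ubiquitin ligase (880.2 against 41.0), TUBD1 (155 against 6.41) and VMP1, an autophagy protein (1237 against 149). The next run on the chromosome, LOC645638 to TEX2, had a median of 1.75 and 8 genes called higher, among them PPM1D, a phosphatase (415 against 15.3), BRIP1, a helicase (150 against 3.89), TBX2 (262 against 4.19) and APPBP2 (931 against 50.5). These genes were named after their values were seen.

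Further high runs were on chromosome 16 from TMEM219 to FBXL19 (median 1.66, all 25 above the controls' mean), on chromosome 9 from TRUB2 to LOC100506190 (1.52) and on chromosome 20 from CEBPB to RAB22A (1.42). The run of 25 on chromosome 6 from HIST1H4C to HIST1H2AH had a median of 1.83, but eGFP replicate 1 also stood 1.04 above the other controls there, and histone genes are near-identical copies. The lowest runs were on chromosome 11 from FUT4 to SLC35F2 (-1.65), which nonetheless held PGR, and on chromosome 1 from GNG4 to ZNF695 (-1.55), EPRS to LIN9 (-1.53) and DIEXF to LYPLAL1 (-1.50). By chromosome, medians ran from -0.64 on chromosome 18, where 16.1% of the genes were called lower, to 0.68 on chromosome 9, where 10.2% were called higher. The difference had next to no linear relation across genes to the GC share of the amplicon (Pearson's r = 0.02 over 9566 genes, which are not independent). Gene dose was not measured.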

How the data were processed

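RNA of 6 libraries was converted to cDNA, amplified with the Ion AmpliSeq Transcriptome kit and sequenced on an Ion S5 XL. The authors mapped reads to a transcriptome reference of amplicons with the Ion Torrent suite and deposited, per amplicon, total read counts (whole numbers, not normalized), the reads that cover the amplicon in each direction, and RPM, which is the count scaled to the library total. The share of an amplicon that a covering read spans is not given in the sources used here, nor is a genome build. The files also held 10 spike-in amplicons with 0 reads, which were left out. Total reads are given in the report.

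RPM was recomputed from the counts, and log2 levels used a pseudocount of 1 RPM. Genes needed a mean of at least 5 RPM over the 4 libraries. A gene was called at 4-fold beyond the nearest of the 3 controls, and no test was run, since 1 library stands against 3. The difference is wt replicate 1 minus the mean of the 3 controls' log2 levels. Intervals of a level are exact (Clopper-Pearson, 95%), and those of a fold with 1 to 3 reads on the low side are exact Poisson intervals of that count.

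The library, the markers, the 23 gene lists and the rules were chosen with earlier results of these data known. Named genes were the 5 markers and KCNJ3, up to 8 members per list with the widest difference past the filter together with members whose role a sentence turns on, and the 15 widest differences each way among called genes. XIST and Y-linked genes were left out, and some list members are not reported here. Of the listed symbols, 3 were not matched to an amplicon. Genes were placed by RefSeq accession, then symbol (9534 of 9566 matched, GRCh38.p14), and only their order was used.

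The code that makes the calls was checked on simulated counts with known changes, which does not measure the error rate of the calls in these data. Python 3.11.15 (numpy 2.4.6, pandas 2.3.3, scipy 1.17.1, statsmodels 0.14.6, matplotlib 3.10.9) and R 4.3.3 with edgeR 4.0.16 (TMM factors only) were used.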

Additional observations from a re-analysis of the deposited data

How the results depend on the processing

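With 1 library against 3, no value here has a test, and the call rule sets the counts. Genes called higher and lower numbered 1416 and 1371 at 2-fold, and 291 and 397 at 8-fold. A mean of at least 20 RPM left 253 and 423, no filter gave 939 and 736, and a pseudocount of 5 RPM gave 390 and 370, so that in both of these the higher calls outnumbered the lower ones. TMM factors gave 402 and 785. Leaving out each control in turn gave 596 to 703 higher and 695 to 786 lower, and with either scaling factor, thinned libraries, covering reads, the GC correction or the hG1a libraries as controls both counts stayed within 1.5 times. No gene changed direction of call in any of these. The luminal median (6.93) was 8.56 and 5.203 with pseudocounts of 0.1 and 5 RPM, 5.75 without a filter, 7.33 at 20 RPM and 6.44 to 6.66 without 1 control. The basal median (-5.13) was -5.73 and -3.53 with those pseudocounts, -4.71 without a filter, -5.75 at 20 RPM, -5.36 with TMM factors, -5.56 against the hG1a libraries and -5.27 to -4.88 without 1 control.

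KCNJ3 was -3.79 against the hG1a libraries, and the fibroblast median went from 1.47 (COL1A1 alone past the filter) to -1.77, because DCN also passed the filter with those libraries. The other changes of sign were in medians of lists and of all genes. The median of all genes was -0.17 with TMM factors, -0.078 with median-of-ratios factors and -0.012 after GC correction. The HOX median was 0.065 and the detoxification median 0.36 without a filter, the latter 0.079 without eGFP replicate 2 and 0.19 against hG1a. The CDK inhibitor median was -0.25 at 20 RPM and against hG1a the reference median was 0.36. The causes of these other changes were not tested. No paired analysis was possible because 1 library stands against 3. The shallow depth of wt replicate 1 hides levels under 1.20 RPM.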
